A study of Mus musculus with 38 samples.

Results

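The soleus of mice that had been fasted into torpor and then given food again (Post) was compared with the soleus of mice that never lost their food (Fed). Both groups were C57BL/6J mice, male by the methods of the study, with no genetic change. The Post mice were fed on day 1, had no food on day 2, and were sampled on day 3 after food had been returned. The Fed mice stayed in the cold with food and were sampled on day 2, and the Pre mice, used here as a further reference, were fed freely and sampled on day 1. The Mid mice, whose means are given for a few promoters, were fasted and sampled on day 2. By the study, they were either torpid or between bouts of torpor. The study kept ambient temperature constant through each experiment, and torpor by fasting needed a low one. Pre, Mid and Post followed the same protocol, so the cold was shared with Fed. The Post, Fed and Pre mice were taken late in the dark phase. Post and Fed had 4 libraries each, so that 8 of the 38 libraries of the series form the comparison, and all 10776 promoter clusters with any tag in the 28 libraries of the first sequencing run were tested. That run also held 4 libraries of mice fasted at high ambient temperature (HiT) and 4 of fasted mice kept from torpor by touch (Dep). Both groups were sampled on day 2 and entered the fit only. The GEO entry lists the condition of the Fed libraries as starvation, whereas its design text and the methods of the study describe them as fed, and the latter was followed. Food history and day of sampling differ together between Post and Fed, so the effects of fasting, torpor, refeeding and time in the chamber cannot be told apart.

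The soleus lies in the calf and holds posture, with many slow-twitch oxidative fibers that burn fatty acids. Fasting raises glucocorticoid and FOXO signals in muscle, which open the way to fat oxidation and protein breakdown, and feeding turns these signals down through insulin. Muscle also keeps a circadian clock. In it the activators BMAL1 (gene Arntl), CLOCK and NPAS2 act at E-boxes, the nuclear receptor REV-ERBα (Nr1d1) represses Arntl, Npas2 and Nfil3 at AGGTCA elements, and DBP and NFIL3 compete at D-boxes as activator and repressor of output genes.

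The level of a promoter was measured by CAGE, in which the capped 5′ ends of RNA are sequenced, so that each tag marks a start of transcription. Levels are normalised CPM (the tag count set against the library size after TMM scaling), positions are those of mm10, and a promoter was called higher or lower in Post where the quasi-likelihood F test of edgeR gave a Benjamini-Hochberg FDR under 0.05. In bulk tissue, fewer cells of a type and less RNA per cell cannot be told apart.

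The 5 promoter windows here are shown because the start measured in each passed the threshold and because each holds one of the short elements searched for here. The calls of Arntl, Nfil3, Nfe2l1 and Ankrd2 held under every setting, and that of Bhlhe41 under 11 of 19. Each runs from 250 bases before to 50 bases after the RefSeq start in GRCm38.p6, the mm10 assembly, 5′ to 3′ along the gene, with the element in capitals. Arntl (chr7:113207261-113207560, plus strand) and Nfil3 (chr13:52980990-52981289, minus strand) were lower in Post and hold AGGTCA, which in Nfil3 reads as its reverse complement. Nfe2l1 (chr11:96823964-96824263, minus strand) was higher and holds AGGTCA at 2 places, both as the reverse complement. Bhlhe41 (chr6:145865371-145865670, minus strand), also higher, holds the E-box CACGTG, and Ankrd2 (chr19:42035777-42036076, plus strand), higher as well, holds the TATA box TATAAA.
Arntl: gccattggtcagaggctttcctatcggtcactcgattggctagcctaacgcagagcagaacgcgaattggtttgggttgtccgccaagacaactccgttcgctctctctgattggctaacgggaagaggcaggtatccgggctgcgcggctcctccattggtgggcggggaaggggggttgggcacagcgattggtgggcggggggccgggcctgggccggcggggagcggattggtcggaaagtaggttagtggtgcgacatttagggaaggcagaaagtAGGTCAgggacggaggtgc
Nfil3: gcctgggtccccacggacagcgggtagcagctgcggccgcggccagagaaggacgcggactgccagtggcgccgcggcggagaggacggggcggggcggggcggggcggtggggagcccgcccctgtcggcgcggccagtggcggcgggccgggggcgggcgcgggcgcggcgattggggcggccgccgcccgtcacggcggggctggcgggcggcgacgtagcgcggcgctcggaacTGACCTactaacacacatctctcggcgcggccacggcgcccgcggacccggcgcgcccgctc
Nfe2l1: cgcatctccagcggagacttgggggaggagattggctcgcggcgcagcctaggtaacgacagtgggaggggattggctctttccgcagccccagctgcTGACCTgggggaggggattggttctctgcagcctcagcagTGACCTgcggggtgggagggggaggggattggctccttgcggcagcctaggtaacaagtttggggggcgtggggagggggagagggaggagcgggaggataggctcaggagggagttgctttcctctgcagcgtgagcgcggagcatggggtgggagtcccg
Bhlhe41: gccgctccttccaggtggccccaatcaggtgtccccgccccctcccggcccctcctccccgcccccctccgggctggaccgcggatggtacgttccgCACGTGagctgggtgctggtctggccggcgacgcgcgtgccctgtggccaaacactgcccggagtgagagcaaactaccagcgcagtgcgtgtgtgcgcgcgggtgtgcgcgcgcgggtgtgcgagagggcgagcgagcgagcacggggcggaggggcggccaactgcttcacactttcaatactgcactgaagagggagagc
Ankrd2: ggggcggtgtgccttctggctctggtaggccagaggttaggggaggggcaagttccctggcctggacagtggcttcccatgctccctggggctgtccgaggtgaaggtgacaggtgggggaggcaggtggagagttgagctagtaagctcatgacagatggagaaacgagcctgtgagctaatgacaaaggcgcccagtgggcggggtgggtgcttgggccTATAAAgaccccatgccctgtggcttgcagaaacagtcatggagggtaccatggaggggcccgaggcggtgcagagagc

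Before the levels, some libraries must be set apart. The slow-fiber genes were present in all libraries, with Myh7, the slow myosin heavy chain, at 1277.9 to 1490.9 CPM in Post and 894.1 to 1215.2 CPM in Fed. Tags in clusters numbered 24830378 to 28739957 in Post and 18257657 to 39176649 in Fed, and no library was a copy of another. The Fed libraries lay farther from each other than the Post libraries did, with a mean distance to the own group of 2.01 to 2.56 against 1.49 to 1.71 on the leading log2 fold change scale. Fed 1 was high in genes of fast glycolytic fibers, with Actn3, the fast-fiber α-actinin, at 2081.4 CPM against 320.9 to 692.2 CPM in the other Fed libraries. Fed 2 was high in red blood cell markers, of which 6 of 7 were measured and whose summed level was 13774.5 CPM against 2837.4 to 5045.8 CPM in the other Fed libraries and 2036.3 to 2639.3 CPM in Post. Liver genes, listed after the values were seen (11 of 12 measured), summed to 607 CPM in Fed 2 and 439.2 CPM in Fed 3, to 14.1 and 67.1 CPM in Fed 1 and Fed 4, and to 7.06 to 61.8 CPM in Post. Albumin alone reached 217.8 and 128.8 CPM in Fed 2 and Fed 3, while Cps1, Fabp1 and Mup3 stood at 0 in Fed 1 and in Post 1. Results are therefore also given without Fed 1, without Fed 2, and without both.

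**Figure D1:**
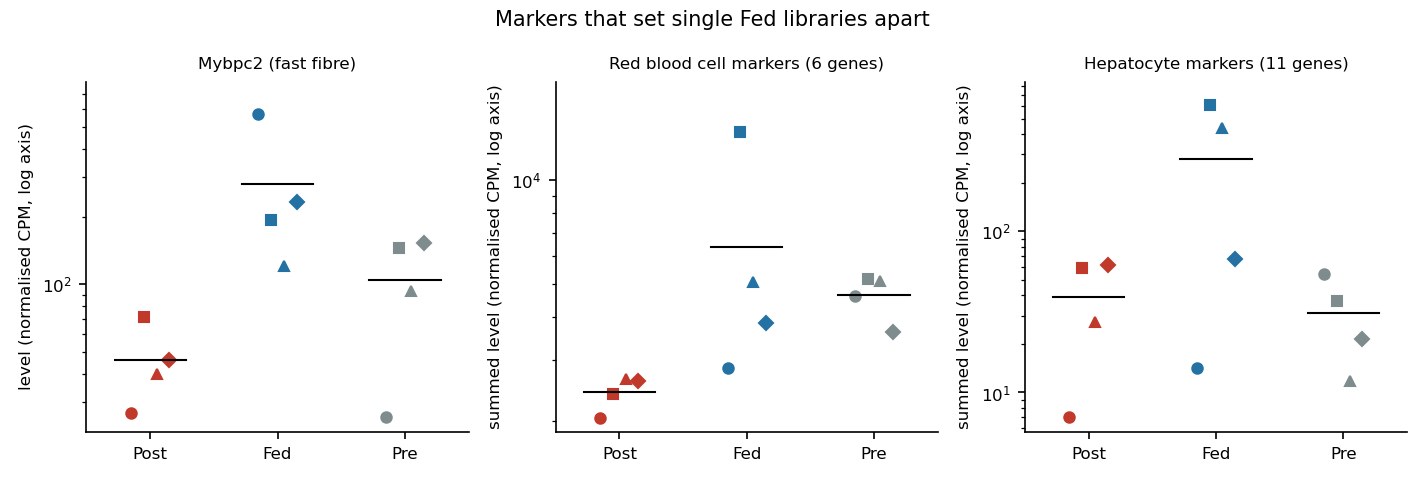
Levels (normalised CPM, log axes) of Mybpc2, of 6 red blood cell markers summed and of 11 liver markers summed, in the Post (red), Fed (blue) and Pre (grey) libraries, with marker shape giving the replicate number and the black bar the mean. Fed 1 is high in Mybpc2, a fast-fiber gene (569.5 CPM), Fed 2 in red blood cell markers (13774.5 CPM), and Fed 2 and Fed 3 in liver genes (607 and 439.2 CPM).

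Of the 10776 promoters, 1152 were higher in Post (10.7%) and 1244 were lower (11.5%). Scaled by library size without TMM, 60 were higher and 214 lower, the share of higher promoters among the calls going from 48.1 to 21.9% and the overall median log2 fold change from −0.03 to −0.14. Most differences were small, with a median size of 0.38 on the log2 scale for the higher promoters and 0.56 for the lower, and 67 higher and 110 lower promoters differed by more than 1. Every Post library lay above every Fed library at 1328 promoters (12.3%) and below at 1231 (11.4%). With libraries left out, the calls changed to 629 higher and 548 lower without Fed 1, 605 and 660 without Fed 2, and 94 and 68 without both. Leaving out Post 1, Post 2, Post 3 or Fed 4 also lowered the total, to 1020 and 612, 764 and 863, 714 and 638, and 1066 and 1166. Calls were more numerous than in the main fit without Fed 3 (1371 and 1459) and without Post 4 (1218 and 1452). How much of these changes comes from the number of libraries was not tested. For context, 113 promoters were higher (1.05%) and 86 lower (0.798%) in Post than in Pre, and 634 were higher (5.88%) and 573 lower (5.32%) in Fed than in Pre. These comparisons share the Post or the Fed libraries with the first, so their values are set side by side only.

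Among the 148 promoters named here that passed the threshold, 23 did so under each of the 19 other settings tried, including every scaling, every library left out, and both Fed 1 and Fed 2 left out. Of these 23, 15 were higher and 8 lower in Post. They were gathered by their calls, and their counts are a description. One of the 19 settings, the fit of all 38 libraries, includes the 3 Post and 2 Pre libraries of the second sequencing run. By the study, these came from a separate batch of mice, sampled independently of the first. Since that fit holds them, the second-run levels given for some of these promoters are descriptions as well.

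The largest of these steady differences lay at a start inside Arpp19, which encodes a phosphoprotein that inhibits the phosphatase PP2A. This start, at chr9:75052112 on the plus strand, lies in an exon, 14498 bases downstream of the first annotated 5′ end of the gene. Its level was 8.99, 8.55, 5.07 and 12.4 CPM in Post 1 to 4 and 0.906, 0.55, 0.521 and 1.26 CPM in Fed 1 to 4. The groups stood far apart, with the lowest Post library above the highest Fed library, and Pre (0.625 to 1.38 CPM) lay with Fed. The log2 fold change was 3.40 ± 0.40 (SE, edgeR quasi-likelihood F test, FDR = 2.17e-05), a 10.8-fold difference. The first promoter of the gene moved far less, from 79.5 to 99.7 CPM in Fed to 100.5 to 120.8 CPM in Post (log2 fold change 0.39, FDR = 0.00274). In the second run the internal start measured 8.96 to 10.8 CPM in Post and 1.81 to 2.4 CPM in Pre. The labels place the second-run Pre and Post libraries in different lanes, so group and lane cannot be told apart there. Over all promoters, every second-run Post library lay above every second-run Pre library at 13.6% and below at 15.7%. These limits hold for each second-run value given here.

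Krt80, which encodes a keratin of epithelia, came next. Its promoter at chr15:101370164 gave 10, 6.34, 7.32 and 9.1 CPM in Post and 1.28, 1.58, 1.13 and 1.42 CPM in Fed. All Post libraries were high and all Fed libraries low (log2 fold change 2.59 ± 0.35, SE, edgeR FDR = 6.52e-05), and Post was also above Pre (2.03, FDR = 0.0015). St3gal5 encodes the synthase of the ganglioside GM3, a lipid that dampens the insulin receptor. A downstream start of this gene at chr6:72115310 measured 117.3, 92.9, 84.9 and 87.1 CPM in Post and 20.5, 21.2, 28 and 25 CPM in Fed, with no overlap (2.01 ± 0.37, SE, edgeR FDR = 0.00113). The main St3gal5 promoter did not pass (167.9 to 219.6 against 186.2 to 214.0 CPM, log2 fold change −0.02, edgeR FDR = 0.924). The call of the downstream start held in every setting but the loss of Fed 1 and Fed 2 together (1.85, edgeR FDR = 0.0542). Acot1, a cytosolic thioesterase that frees fatty acids from acyl-CoA, measured 6.61, 8.36, 6.96 and 7.87 CPM in Post and 1.65, 3.06, 2.94 and 1.24 CPM in Fed. The ranges were again apart (1.75 ± 0.32, SE, edgeR FDR = 0.00115), while the fasted Mid mice averaged 23.5 CPM.

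Further promoters that were higher in every setting belonged to genes of varied function. Pmm1, a phosphomannomutase, gave 46.7, 42.9, 34.6 and 39.8 CPM in Post and 14.7, 20.1, 17.6 and 19 CPM in Fed, a 2.29-fold difference. Ppip5k1, a kinase that makes inositol pyrophosphates, gave 9.4 to 12.2 CPM in Post and 3.94 to 4.88 CPM in Fed, and A330074K22Rik, a long non-coding RNA, 7.84 to 11.3 against 2.02 to 4.85 CPM. Internal starts of Pnpla2, the gene of adipose triglyceride lipase, and of Tmbim1 rose by 1.18 and 1.27 on the log2 scale. Pnpla2 was also higher at its main promoter (160.8 to 186.7 against 80.9 to 119.3 CPM, 0.76, edgeR FDR = 0.0072). Nmrk2, a kinase that turns nicotinamide riboside into an NAD precursor, measured 97.7, 91.4, 72.1 and 57.3 CPM in Post and 31.9, 35.6, 41.8 and 32.2 CPM in Fed (1.17, edgeR FDR = 0.00378), but lost its call without Fed 1 and Fed 2 (FDR = 0.0938).

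Steady promoters on the lower side included both measured starts of Asb15, an ankyrin repeat and SOCS box protein of muscle. The start at chr6:24556046 measured 1.9, 2.1, 2.69 and 2.45 CPM in Post and 12.6, 6.23, 9.11 and 8.12 CPM in Fed, and Pre averaged 9.99 CPM. Post thus lay below every Fed library (log2 fold change −1.97 ± 0.26, SE, edgeR FDR = 6.52e-05), and the start at chr6:24555683 fell by 1.90. The latter averaged 41.5 CPM in the fasted Mid mice. An internal start of Slc30a2, a zinc transporter gene, measured 2.22, 2.06, 2.09 and 1.07 CPM in Post and 7.78, 6.06, 8.83 and 5.92 CPM in Fed. No Post library reached the lowest Fed library (−1.94 ± 0.26, SE, edgeR FDR = 6.52e-05), and Pre lay between (3.77 to 5.47 CPM). Phkg1, the catalytic subunit of muscle phosphorylase kinase, which sets off glycogen breakdown, gave 17.1, 24.8, 20.6 and 16.3 CPM in Post and 71.2, 36.0, 38.1 and 41.3 CPM in Fed. Fed 1 was the highest, and without Fed 1 and Fed 2 the log2 fold change went from −1.24 to −1.01 (edgeR FDR = 0.0149).

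**Figure D2:**
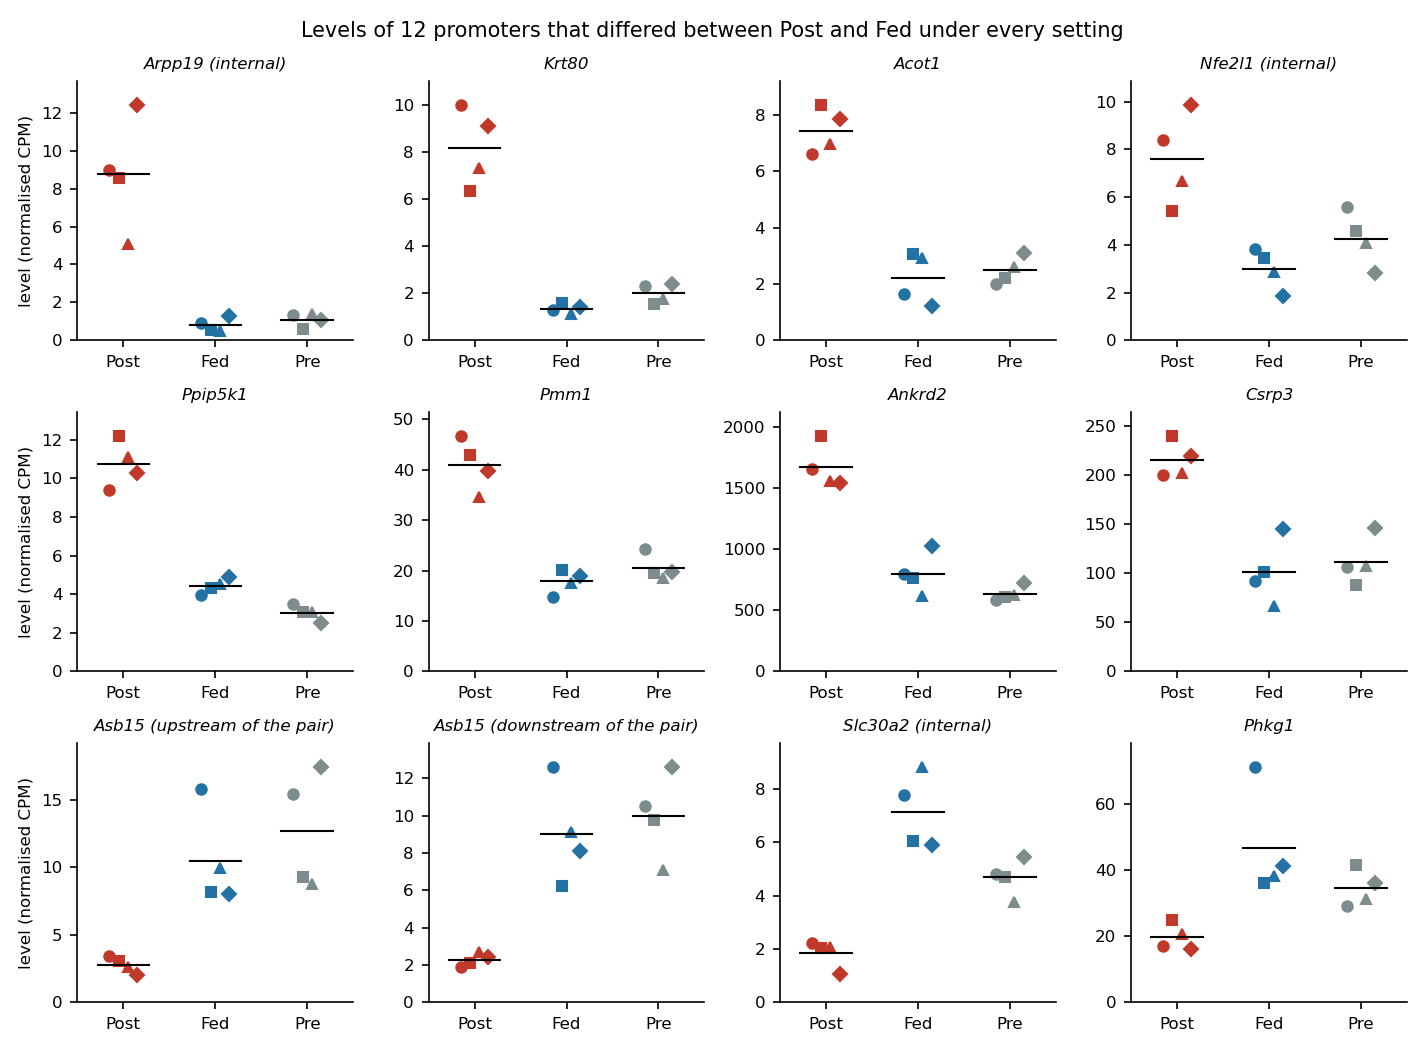
Levels (normalised CPM, linear axes from 0) of 12 of the 23 promoters that passed the threshold under every setting, for Post (red), Fed (blue) and Pre (grey), with marker shape giving the replicate number and the black bar the mean. At the internal Arpp19 start the Post libraries sit between 5.07 and 12.4 CPM and the Fed libraries between 0.521 and 1.26 CPM.

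Genes of the circadian clock moved in both directions, with activators of the loop lower in Post and the repressor Nr1d1 higher. Of 22 measured clock genes, 4 rose (18.2%), 4 fell (18.2%) and 14 did not pass, and the median log2 fold change was −0.15 beside −0.03 over all promoters. Nr1d1, the repressor REV-ERBα, measured 37.8, 36.2, 31.6 and 26.7 CPM in Post, 20.5, 19, 12.9 and 11.9 CPM in Fed and 17.8, 14.1, 12.1 and 15.8 CPM in Pre. Every Post library lay above every Fed library (1.05 ± 0.20, SE, edgeR FDR = 0.00128). Dbp, the activator of D-box genes, measured 19.4, 16.1, 14.6 and 16.3 CPM in Post and 9.27, 9.05, 10.9 and 7.59 CPM in Fed, again without overlap (0.85 ± 0.14, SE, edgeR FDR = 0.000414). The repressors of E-box transcription Bhlhe40 and Bhlhe41 also rose, by 0.50 (FDR = 0.0408) and 0.44 (FDR = 0.0345), and each lost its call in 6 of the 8 fits without 1 library.

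The activators of the clock fell. Arntl measured 23.1, 23.3, 27.8 and 22.7 CPM in Post and 46.6, 41.9, 36.0 and 41.1 CPM in Fed, with Pre at 34.1 to 41.0 CPM. All Post libraries lay below all Fed and all Pre libraries (−0.77 ± 0.10, SE, edgeR FDR = 4.14e-05). Npas2, a partner of BMAL1 that can take the place of CLOCK, measured 3.02, 2.18, 2.57 and 4.47 CPM in Post and 8.36, 11.3, 6.35 and 8.23 CPM in Fed (−1.47 ± 0.26, SE, edgeR FDR = 0.000833), and the groups did not overlap. Clock itself fell by 0.41 (20.3 to 27.2 against 29.1 to 35.8 CPM, FDR = 0.00893), a call lost without Post 1. Nfil3, the repressor of D-box genes, measured 11.7, 12.8, 12.3 and 11.3 CPM in Post and 23.4, 22.1, 25 and 31.7 CPM in Fed, and the ranges stood apart (−1.09 ± 0.15, SE, edgeR FDR = 9.33e-05). Against Pre, the Post values were 1.14 for Nr1d1, 0.99 for Dbp, −0.61 for Arntl, −1.05 for Npas2 and −1.18 for Nfil3, each with an FDR under 0.05. The period genes gave no call, with log2 fold changes of −0.15 for Per1 and Per2 and 0.41 for Per3, and neither did Cry1 (−0.41), Cry2 (0.19) nor Nr1d2 (0.24).

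Nr1d1, Dbp, Arntl, Npas2 and Nfil3 were among the 23 steady promoters. In the second run Nr1d1 measured 40.9 to 67.2 CPM in Post and 13.6 to 18.1 CPM in Pre, and Nfil3 25.2 to 36.3 against 69.1 to 70.8 CPM. RefSeq windows were matched for 15 of the 22 clock genes. AGGTCA stood in those of Arntl, Nfil3 and Nr1d2 (3 of 15, beside 16.3% of 32851 RefSeq windows, both strands), CACGTG in those of Bhlhe41, Cry1 and Tef (3 of 15, beside 7.15%), and TTATGTAA, a D-box, in that of Per3 (0.938% of all windows). In Arntl and in Nfil3 the AGGTCA match stood 7 bases before the highest measured start. These matches describe the letters in the window and not binding.

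**Figure D3:**
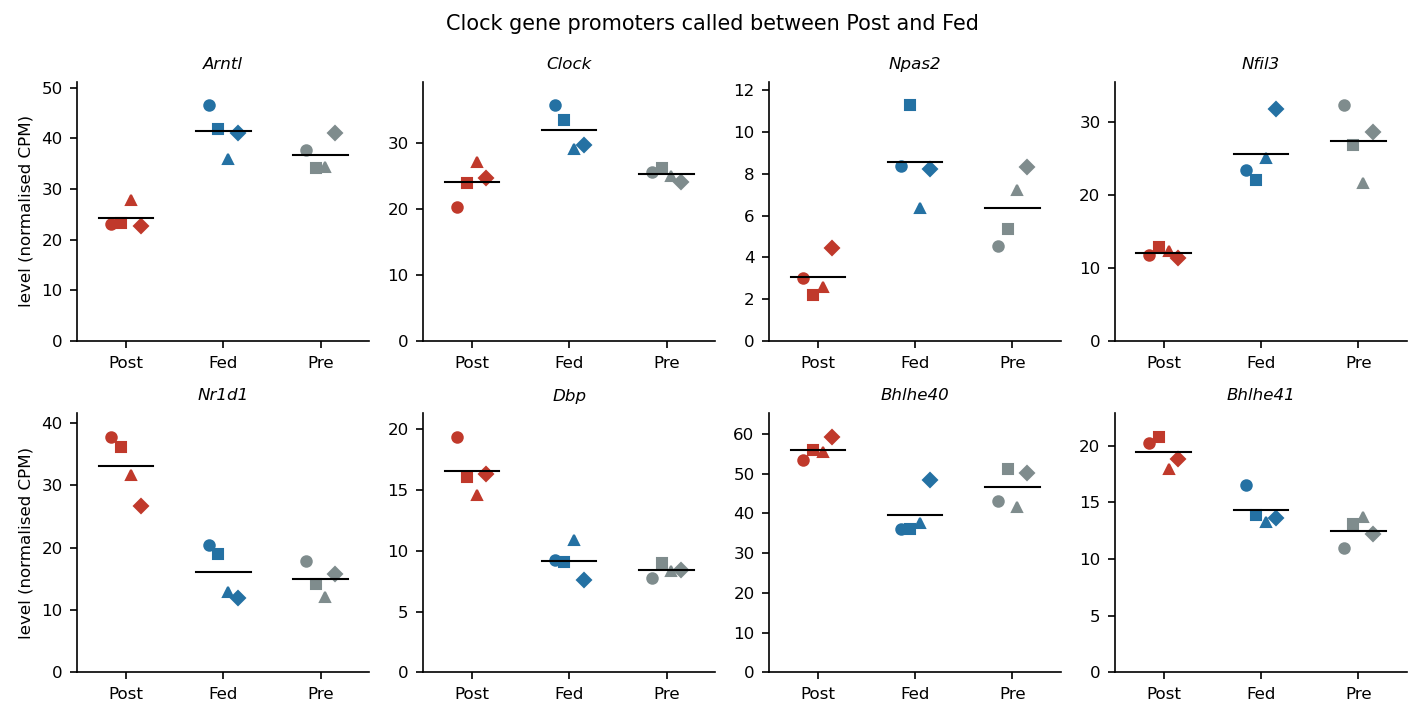
Levels (normalised CPM, linear axes from 0) of clock promoters in Post (red), Fed (blue) and Pre (grey) libraries, with marker shape giving the replicate number and the black bar the mean. Nr1d1 and Dbp are higher in every Post library than in any Fed library, and Arntl, Npas2, Nfil3 and Clock are lower.

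The proteasome is the protease that degrades ubiquitinated proteins, and of its 39 measured subunit genes 29 were higher in Post (74.4%) and none lower, with a median log2 fold change of 0.38. Their summed level was 4595.1, 4770.7, 4527.9 and 4278.2 CPM in Post, 3483.6, 3280.4, 3769.6 and 3615.6 CPM in Fed and 3955.8 to 3988.3 CPM in Pre. The 3 groups formed tiers with no overlap, Post on top, Pre between and Fed below. The core subunit Psmb1 measured 142.4, 155.1, 140.3 and 136.6 CPM in Post and 74.8, 81.9, 113.1 and 100.8 CPM in Fed (0.63, edgeR FDR = 0.000276). Psmb3, Psma5 and Psma7 rose by 0.61, 0.58 and 0.55. Without Fed 1 and Fed 2, 11 of the 39 passed the threshold and the median was 0.31, whereas without TMM none passed, with a median of 0.27. Against Pre, 4 subunits were higher in Post, and 12 were lower in Fed.

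A start of Nfe2l1, the gene of the transcription factor that drives proteasome gene expression when the protease is overloaded, was among the steady promoters. It lies in an intron of the longer transcripts, at chr11:96824014, and measured 8.39, 5.44, 6.68 and 9.86 CPM in Post and 3.84, 3.44, 2.85 and 1.86 CPM in Fed. The Post libraries were all above the Fed libraries (1.35 ± 0.27, SE, edgeR FDR = 0.00199). The value against Pre was 0.83 and did not pass (edgeR FDR = 0.131). The upstream Nfe2l1 promoters at chr11:96828186 and chr11:96829495 gave 0.39 (FDR = 0.152) and 0.23 (FDR = 0.0784). The core of the antioxidant response element that this factor binds, TGACNNNGC, stood in 6 of the 33 matched proteasome windows (18.2%), beside 12.4% of all windows.

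Ribosomal protein genes were higher in Post at 56 of 79 (70.9%) and lower at 1, Rpl3l, the paralog of Rpl3 used in muscle (−0.22, edgeR FDR = 0.0491), whose call was lost in 5 of the 8 fits without 1 library. Their median log2 fold change was 0.31 and their sum 8616.7 to 9305.0 CPM in Post against 6936.9 to 7741.3 CPM in Fed. The Pre sum of 8656.7 to 8943.5 CPM lay within the Post range, none of the 79 was called between Post and Pre, and 42 were lower in Fed than in Pre. Rps13 was a member with one of the larger differences, at 236.7, 261.9, 227.5 and 231.0 CPM in Post and 126.4, 135.7, 163.3 and 160.8 CPM in Fed (0.71, edgeR FDR = 6.49e-05). Without Fed 1 and Fed 2, 4 of the 79 were called, and without TMM none. Of 625 processed pseudogenes, which are copies of mRNAs in the genome, 177 were higher (28.3%) and 9 lower (1.44%), and of the 86 of them named for a ribosomal protein 45 were higher (52.3%). Tags of such copies and of their parent genes may be assigned to each other. Of 35 translation factors, 8 rose (22.9%, beside 10.7% over all promoters), among them Eif3g (0.44) and Eif4h (0.34). Another 3 fell, Eif5b (−0.48), Eif4a2 (−0.32) and Eif4g3 (−0.29), a share of 8.57% that lay below the 11.5% over all promoters. The calls of Eif4a2 and Eif4g3 were lost in 5 and 3 of the 8 fits without 1 library.

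The respiratory chain, which makes most of the ATP of the soleus, was higher in Post at 24 of 80 nuclear subunit genes (30%) and lower at none, with a median log2 fold change of 0.23. Atp5e, a subunit of the ATP synthase, measured 1640.9, 1836.9, 1878.2 and 1747.8 CPM in Post and 1252.7, 1074.8, 1409.2 and 1190.4 CPM in Fed (0.53, edgeR FDR = 0.0047). The summed level was 68556.6 to 75911.0 CPM in Post, 52101.4 to 69243.1 CPM in Fed and 74900.5 to 77460.3 CPM in Pre, so that the ranges of Post and Fed overlapped through Fed 3. Against Pre, 52 of the 80 were lower in Fed and 1 was lower in Post. Without Fed 1 and Fed 2, no member was called and the median was 0.06.

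**Figure D4:**
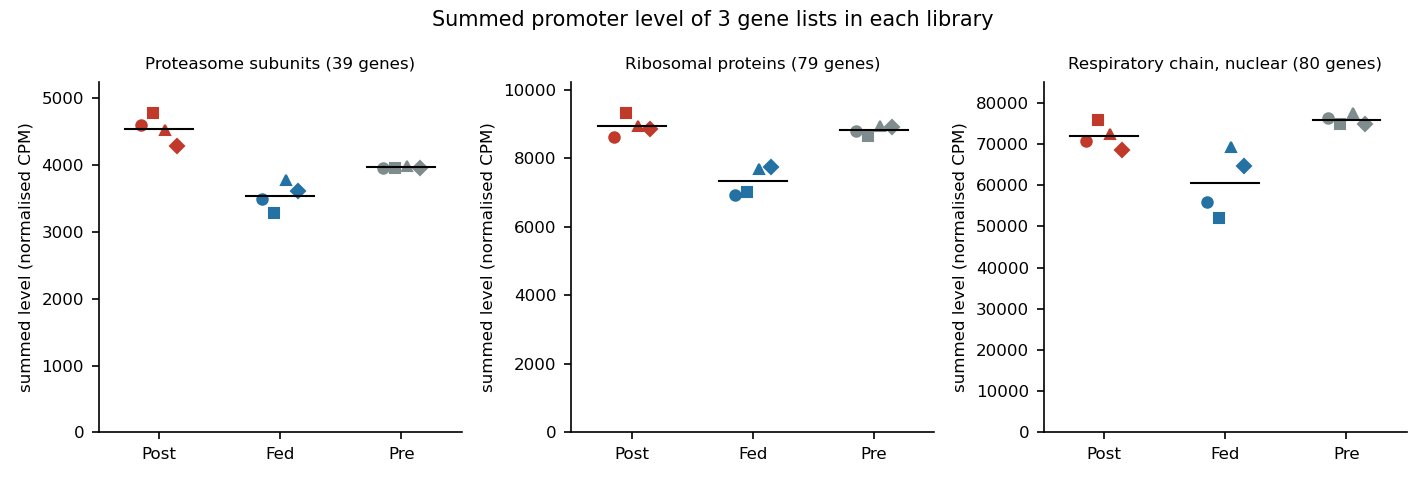
Summed levels (normalised CPM, axes from 0) of the proteasome, ribosomal protein and nuclear respiratory chain genes in the Post (red), Fed (blue) and Pre (grey) libraries, with marker shape giving the replicate number and the black bar the mean. The proteasome sums form 3 tiers without overlap, while the ribosomal protein sums of Pre lie within those of Post.

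Among genes of fatty acid oxidation and PPAR targets, 8 of 32 rose (25%) and 3 fell (9.38%), with a median log2 fold change of 0.13. The shares over all promoters were 10.7% and 11.5%. Without Fed 1 the list held 3 rises and 3 falls, without Fed 2 it held 3 and 2, and without both it held 1 rise and no fall, with a median of 0.04. Fabp3, which carries fatty acids in the cytosol of muscle, measured 4237.8, 4591.5, 4130.4 and 3998.9 CPM in Post and 1500.7, 1833.6, 2907.9 and 2252.8 CPM in Fed. The ranges did not overlap (1.00 ± 0.18, SE, edgeR FDR = 0.0011), and Fed was also below Pre (−0.62, FDR = 0.0317). Acot1, given above, Etfdh (0.38) and Ech1 (0.34) also rose, the last with its call lost in 3 of the 8 fits without 1 library. Pdk4, the kinase that shuts pyruvate dehydrogenase during fasting, measured 228.1, 206.3, 272.7 and 200.9 CPM in Post and 259.6, 582.5, 653.7 and 274.1 CPM in Fed. Fed 2 and Fed 3 were high, while Fed 1 lay within the Post range and Fed 4 just above it (−0.96 ± 0.29, SE, edgeR FDR = 0.0189), and the call was lost without Fed 2, without Fed 3 or without Post 2. Its mean in the fasted Mid mice was 4702.8 CPM. Ppara, the receptor that turns on fat oxidation, and Plin5, a coat protein of lipid droplets, fell by 0.45 and 0.46, but lost their calls in 5 and 4 of these fits.

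Several genes of the fasting response were lower in Post than in Fed. Of 29 genes of FOXO factors, ubiquitin ligases and autophagy, 7 fell (24.1%, beside 11.5% over all promoters), with a median log2 fold change of −0.25. Another 4 rose (13.8%), a share near the 10.7% over all promoters. Klf15, a factor induced by glucocorticoids, measured 14.4, 19.8, 12.7 and 29.2 CPM in Post and 39.5, 39.8, 32.2 and 34.8 CPM in Fed. Post 4 came nearest to Fed without reaching it (−0.93, edgeR FDR = 0.0142), and the call was lost in 2 of the 8 fits without 1 library. Ulk1, the kinase that starts autophagy, measured 20.9, 21.9, 18.1 and 29.7 CPM in Post and 46.0, 40.4, 43.9 and 33.3 CPM in Fed (−0.85, edgeR FDR = 0.0104), again without overlap. Foxo1 and Bcl6 fell by 0.65 and 0.56, the Foxo1 call being lost in 6 of the 8 such fits. In contrast, Map1lc3b, the autophagosome protein LC3, rose (130.4 to 156.2 against 80.3 to 116.5 CPM, 0.59, edgeR FDR = 0.0041), as did the mitophagy receptors Bnip3 (0.49) and Bnip3l (0.32), whose calls were lost in 3 and 5 of the 8 fits. Of 20 glucocorticoid targets, 4 fell (20%, beside 11.5% over all promoters) and none rose, with a median of −0.40. Those 4 were Klf15, Klf9 (−0.54), Sgk1 (−0.60) and Errfi1 (−0.97, lost in 5 of the 8 fits). The FOXO list held 1 rise and 3 falls without Fed 1 and 1 and 4 without Fed 2. Without both libraries neither list held a call, and the medians were −0.15 and −0.31. Without TMM the FOXO list held no rise and 1 fall, and the glucocorticoid targets held no call. Against Pre, the FOXO list held no call in Post, with a median of −0.08. The glucocorticoid targets held 1 fall and no rise against Pre, with a median of −0.41.

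Insulin and IGF signalling held 3 falls (10%, beside 11.5% over all promoters) and no rise among 30 genes, with a median of −0.14, and no call without Fed 1 and Fed 2. Deptor, an inhibitor of mTOR, measured 5.93 to 7.48 CPM in Post and 8.89 to 13.2 CPM in Fed (−0.69, edgeR FDR = 0.00948). Tbc1d4, the substrate of AKT that holds glucose transporters inside the cell, fell by 0.64 and Igf2r by 0.37. Among 30 genes of glucose use, Gbe1, the glycogen branching enzyme, measured 284.7, 238.6, 222.6 and 223.6 CPM in Post and 194.8, 160.4, 143.3 and 157.1 CPM in Fed (0.56, edgeR FDR = 0.00119). This difference was as large without Fed 1 and Fed 2 (0.69, FDR = 0.00634). Pdp1, the phosphatase that reactivates pyruvate dehydrogenase, rose by 0.58, and Ldha, Pkm and Fbp2 fell by 0.47, 0.48 and 0.88. Those 3 falls were lost without Fed 1 and with the score of fast glycolytic genes as a covariate, and the list held no fall without Fed 1. Ldha is itself part of that score, so the loss of its call with the covariate was partly built in. Of 27 lipid synthesis genes, 3 rose (11.1%) and 2 fell (7.41%), beside 10.7% and 11.5% over all promoters, and Fasn (0.16, edgeR FDR = 0.838) and Acaca (0.22, FDR = 0.336) did not pass. Without Fed 1 or without Fed 2 the list held no rise and 1 fall. Angptl8, an inhibitor of lipoprotein lipase that feeding induces, was 0.807, 0.75, 3.58 and 5.57 CPM in Post and 0.373, 0.86, 0.491 and 1.02 CPM in Fed, so that only Post 3 and Post 4 stood above Fed (1.94, edgeR FDR = 0.029), and 5 of the 8 fits without 1 library lost the call.

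Genes of mechanical load, injury and denervation held 3 rises (13%, beside 10.7% over all promoters) and 1 fall (4.35%, beside 11.5%) among 23, with a median of 0.03 that turned to −0.06 without TMM. Ankrd2, a muscle ankyrin repeat protein that responds to stretch, measured 1651.7, 1923.4, 1558.0 and 1537.0 CPM in Post and 798.1, 759.8, 615.1 and 1026.8 CPM in Fed. All Post libraries were above all Fed libraries (1.06 ± 0.15, SE, edgeR FDR = 9.84e-05) and above Pre (583.6 to 722.0 CPM). Csrp3, the muscle LIM protein of the Z-disc, measured 199.5, 239.4, 202.0 and 218.8 CPM in Post and 92.0, 101.1, 66.9 and 145.3 CPM in Fed (1.08 ± 0.19, SE, edgeR FDR = 0.000761), with no overlap. In the second run Csrp3 was at 13.5 to 15.6 CPM in Post and 12.3 to 14.1 CPM in Pre, whereas Ankrd2 was at 2213.1 to 2594.8 against 1044.4 to 1311.2 CPM. Myh3, the embryonic myosin heavy chain, rose by 1.00 (6.78 to 9.46 against 3.54 to 5.46 CPM, edgeR FDR = 0.0147), and Nos1, the neuronal nitric oxide synthase, fell by 0.87. The TATA box of the Ankrd2 window stood 28 bases before the highest measured start, and TATAAA was found in 4 of the 16 matched windows of the list, beside 13.6% of all windows.

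Slow-fiber genes rose at 5 of 13 (38.5%, beside 10.7% over all promoters), including Csrp3, with a median of 0.24. Without Fed 1 or without Fed 2 they rose at 3, and without both at 1, with a median of 0.10. Myl2, the slow regulatory light chain, measured 1330.4, 1401.1, 1308.6 and 1543.9 CPM in Post and 813.9, 813.5, 1107.5 and 1090.2 CPM in Fed (0.55, edgeR FDR = 0.00794), and Casq2 and Myoz2 rose by 0.55 and 0.47, and all 3 lost their calls without Fed 1 and Fed 2. Fast-fiber genes fell at 6 of 20 (30%, beside 11.5% over all promoters). They rose at 1 (5%, beside 10.7%), Tnnc2 (0.33), which lost its call in 5 of the 8 fits without 1 library. Mybpc2, the fast myosin-binding protein C, measured 26.8, 71.3, 39.9 and 46.0 CPM in Post and 569.5, 193.4, 120.5 and 231.6 CPM in Fed. Fed 1 was the highest, yet every Fed library was above every Post library (−2.60, edgeR FDR = 0.00466), and without Fed 1 and Fed 2 the value was −1.94 (FDR = 0.115). Actn3 fell by 2.40 and lost its call without Fed 1. The fast list fell at 2 genes without Fed 1 and its median moved from −0.24 to −0.10. Whether Fed 1 held fibers of a neighbouring muscle was not tested.

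The list of heat shock proteins and cold-inducible RNA-binding proteins was higher at 10 of 25 (40%) and lower at none, with a median of 0.27, and the 10 include the cold-inducible Cirbp (0.32) and Rbm3 (0.35). Cryab, the small heat shock protein αB-crystallin, measured 8278.1, 9251.6, 7647.2 and 8501.7 CPM in Post and 4562.7, 4426.6, 5164.2 and 5934.4 CPM in Fed (0.75, edgeR FDR = 0.00205), with no overlap, and Hspb3, Hspb2 and Hspb6 rose by 0.66, 0.49 and 0.37, the last with its call lost in 6 of the 8 fits without 1 library. The list held 5 rises without Fed 1 and 5 without Fed 2. Without Fed 1 and Fed 2 the median was 0.13 and no member was called. Among 25 genes of endoplasmic reticulum folding and ATF4, 3 rose and 3 fell, with a median of −0.04. These shares of 12% each were near the 10.7% and 11.5% over all promoters. Ddit3, the factor CHOP, rose (69.3 to 108.5 against 50.2 to 60.8 CPM, 0.75, edgeR FDR = 0.00157), and Canx rose by 0.37 and Calr by 0.38. The Calr ranges overlapped. Chac1, Xbp1 and Vldlr fell by 1.18, 0.39 and 0.48. The calls of Calr, Chac1 and Xbp1 were lost in 6, 6 and 5 of the 8 fits without 1 library. Antioxidant and zinc genes held 1 rise among 24 (4.17%), Prdx6 (0.37), and 1 fall (4.17%), Slc30a2. Immediate early genes held 1 rise among 27 (3.7%), Ier3 (0.51), and 2 falls (7.41%), Klf2 (−0.76) and Jun (−0.28). The shares of both lists lay below those over all promoters. Prdx6, Ier3, Klf2 and Jun lost their calls in 3, 4, 5 and 5 of those fits. Of 18 mitochondrial regulators, Esrrb (0.54) and Prkaa1 (0.46) rose (11.1%) and 4 fell (22.2%), Prkag3 (−1.40), Pprc1 (−0.67), Prkaa2 (−0.55) and Gabpa (−0.24). Without Fed 1 the list held 1 rise and 1 fall, and without Fed 1 and Fed 2 no call. Prkaa1 and Prkaa2, which encode the α1 and α2 catalytic subunits of AMPK, and its γ3 subunit gene Prkag3 lost their calls without Fed 1, and Gabpa held its call in 4 of 19 settings. A list of genes tied to torpor, only some of them named in the study, gave 2 rises (14.3%) and 3 falls (21.4%) among 14. The shares over all promoters were 10.7% and 11.5%. Ppargc1a (−0.34, edgeR FDR = 0.125), Atf3 (−0.50, FDR = 0.193), Hmox1 (0.06, FDR = 0.964) and Slc39a14 (−0.32, FDR = 0.0803) did not pass.

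Matrix genes fell at 7 of 40 (17.5%, beside 11.5% over all promoters) and rose at none, with a median of −0.18. Col3a1, a fibrillar collagen of the tissue sheath, measured 195.1, 132.8, 201.3 and 180.1 CPM in Post and 286.7, 589.2, 295.8 and 433.3 CPM in Fed (−1.18 ± 0.27, SE, edgeR FDR = 0.00455). Fed was above Pre as well (0.89, FDR = 0.0354), with Fed 2 the highest. Fbn1, Col5a3 and Eln fell by 0.95, 1.00 and 0.57, the last 2 with calls lost in 3 of the 8 fits without 1 library. Without Fed 2 the list held 2 falls, and without Fed 1 and Fed 2 none. Endothelial genes summed to 470.4 to 498.7 CPM in Post and 558.1 to 635.6 CPM in Fed with no overlap. Of 12, 3 fell (25%, beside 11.5% over all promoters), Flt1 (−0.71), Egfl7 (−0.51) and Eng (−0.43), with none called without Fed 1 and Fed 2. Of 6 red blood cell genes 5 fell, and Hba-a1 went from 951.7, 4554.1, 1656.1 and 1260.5 CPM in Fed to 675.0, 783.3, 876.5 and 838.4 CPM in Post (−1.41, edgeR FDR = 0.00396). Without Fed 2 the red blood cell list held 2 falls and its median was −0.69. Its Pre sums of 3621.7 to 5159.6 CPM also lay above all Post sums (2036.3 to 2639.3 CPM). Between Post and Pre its median was −0.94, and no member was called. Adipocyte markers gave 1 rise among 10 (10%, beside 10.7% over all promoters), Cidea (0.66, ranges overlapping). Of the 10, 9 had a negative log2 fold change, and the median was −0.15. Neutrophil, macrophage, tendon and Schwann cell markers gave no call among 5, 13, 9 and 5 genes. Cell division genes gave 1 fall among 7 (14.3%, beside 11.5% over all promoters), Birc5. It was at 0.0403 to 0.113 CPM in Post and 0.16 to 0.488 CPM in Fed, a call lost in all 8 fits without 1 library.

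**Figure D5:**
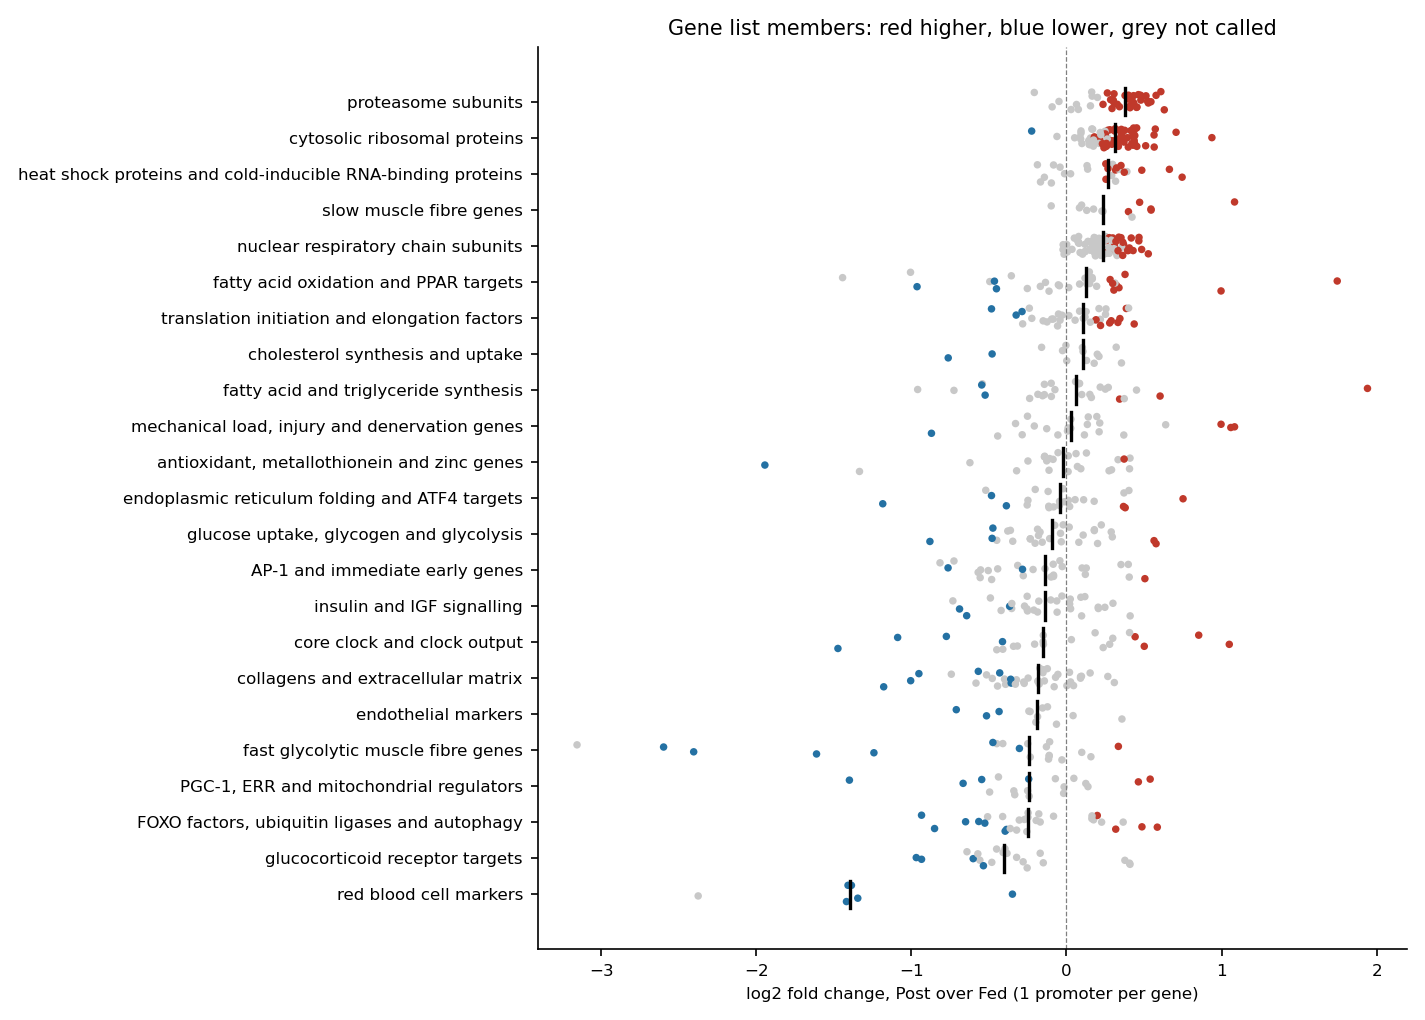
Log2 fold change (Post against Fed, edgeR) of each measured member of the gene lists, one point per gene, red where called higher, blue where called lower and grey where not called, with the list median as a black bar. Proteasome (29 of 39 higher) and ribosomal protein (56 of 79 higher) members lie mostly above 0, and the glucocorticoid targets have a median of −0.40.

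Some genes had promoters that differed in opposite directions. Of 458 genes with more than 1 promoter, 15 had at least 1 call each way. Pfn2, an actin-binding profilin, gave 11, 12.3, 10.3 and 10.5 CPM in Post and 28, 21.7, 17.3 and 19.1 CPM in Fed at chr3:57847076 (−0.96, edgeR FDR = 0.000185). Its stronger start at chr3:57847530 rose instead, from 144.0 to 171.6 CPM in Fed to 191.3 to 228.8 CPM in Post (0.33, FDR = 0.0191). Rbfox2, a regulator of splicing, was higher at chr15:77153780 (20.6, 16.3, 17.1 and 15.6 against 9.69, 9.53, 8.34 and 9.6 CPM, 0.91, edgeR FDR = 0.000126) and lower at chr15:77306900 (−0.73, FDR = 0.0293). Gabbr1, a subunit of the GABA-B receptor, rose by 1.14 at chr17:37050641 and fell by 0.73 at chr17:37046018. Fhl1, a LIM protein of muscle, rose by 0.61 at chrX:56779708 and fell by 0.74 at chrX:56786564, and Kalrn rose by 0.42 at chr16:34096019 and fell by 1.38 at chr16:34573538. The fall of Pfn2 at chr3:57847076 and the rise of Rbfox2 at chr15:77153780 were among the steady promoters. In each of these 5 genes at least 1 of the calls was lost with a library left out, the falls of Rbfox2, Gabbr1 and Fhl1 and the rise of Kalrn in 5 of the 8 fits, the rise of Pfn2 in 2.

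Starts inside genes also gave large falls in which Fed 1 was highest. An intronic start of Pgm1, the gene of phosphoglucomutase, measured 0.242, 0.713, 0.402 and 0.214 CPM in Post and 12.3, 2.44, 2.3 and 4.33 CPM in Fed (−3.75, edgeR FDR = 0.00504), and one of Gpt2, an alanine aminotransferase of mitochondria, fell by 2.54. In both the ranges were apart, and neither passed without Fed 1 and Fed 2 (FDR = 0.0875 and 0.234). The long non-coding RNA 2310065F04Rik fell by 2.47. Of 58 histone promoters, 6 were lower (10.3%) and 3 higher (5.17%), shares no larger than those over all promoters. Among the lower ones, Hist1h3c, Hist2h3c2, Hist2h3c1, Hist1h3b and Hist1h2af fell by 2.13 to 2.53, with Fed 2 and Fed 3 high, and lost their calls in 4 to 7 of the 8 fits without 1 library. As near-identical copies they may share tags. Of 1185 clusters without an annotated gene, 102 were higher (8.61%) and 79 lower (6.67%). The cluster at chr13:44869593 measured 463.3, 146.4, 471.8 and 125.4 CPM in Post, 47.1, 50.4, 20.1 and 16.5 CPM in Fed and 104.2 to 406.9 CPM in Pre (3.18, edgeR FDR = 0.0123), and the one at chr16:35981713 rose by 3.32, a call lost without Post 1 and without Fed 1. In the second run the former was at 2.11 to 3.57 CPM in Post and 0.276 to 1.24 CPM in Pre, and the latter at 0 to 0.235 CPM in Post and 0 to 0.285 CPM in Pre. The largest falls, −5.65 at chr2:131506605 and −5.34 at chr2:76807373, came with Fed 1 at 50.2 and 12.1 CPM and with calls lost in 3 and 4 of the 8 fits without 1 library.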

How the data were processed

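CAGE tags (nAnT-iCAGE) of soleus muscle were analysed from 4 Post, 4 Fed and 4 Pre libraries, within a fit of the 28 libraries of the first run. The authors mapped the reads to mm10 with BWA and HISAT2, clustered the 5′ ends with PromoterPipeline and deposited tag counts per cluster and library, which were used as deposited without normalization. The authors also deposited TPM values, which rescale these counts by library total and were not used. By the study each library came from 1 mouse, whereas the GEO entry does not state it, so p-values measure the spread between libraries. The soleus of one or both legs was taken.

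Counts were tested with edgeR 4.0.16 in R 4.3.3 (TMM, quasi-likelihood F test, group as the only term, common dispersion 0.0377) over 10776 clusters with any tag, with Benjamini-Hochberg adjustment over all of them and a threshold of 0.05. Clusters were given the gene of the nearest GENCODE M21 5′ end on the same strand within 500 bases. Distances between libraries were computed from log2 CPM values given by edgeR. With 4 against 4 libraries an exact permutation test over 70 divisions cannot go below p = 0.0286 when two-sided. Alternatives were the likelihood ratio test, DESeq2 1.42.0, other filters and scalings, other sets of libraries, the replicate block and each library left out. A fast glycolytic score as a covariate and the loss of Fed 1 and Fed 2 together were added after the data were seen. The script was tested on simulated counts.

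The comparison, the gene lists and the rules were chosen with earlier results of these data known. Genes were named by rule, as the 12 largest calls in each direction with a mean of at least 1 CPM and ranges apart, up to 4 calls per list and direction, up to 5 genes with opposite promoters, the 2 largest unannotated clusters in each direction, and genes listed for torpor. Other genes named, such as the liver genes, Cirbp and Rbm3, histone genes as a class, and the 23 steady promoters as a set, were singled out after their values were seen. For a gene with several promoters, lists use the one with the highest mean. The cholesterol synthesis list is not reported here. At a median level of 17.4 CPM counting error is small beside the spread between libraries, and 98% of clusters averaged 1 CPM or more.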

Additional observations from a re-analysis of the deposited data

Results flagged for a closer look

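Of 296 sets of 4 libraries (the Post or Fed libraries of each named promoter), 15 held a library whose gap to the nearest of the others, as a share of the whole range, was above Dixon's critical value. Chance gives about 1 in 20, and the share here was 5.07%. In 6 of the 15 the library was Fed 1. Fed 1 was high at the unannotated clusters at chr2:131506605 (50.2 CPM, gap 0.873) and chr2:76807373 (12.1 CPM, 0.914), at the internal Gpt2 start (17 CPM, 0.834), at Phkg1 (71.2 CPM, 0.851), Esrrb (12.1 CPM, 0.910) and Vldlr (147.0 CPM, 0.889). Fed 2 was high at the internal Pnpla2 start (3.37 CPM, 0.836), Fed 3 low at Rbfox2 (8.34 CPM, 0.879) and Fed 4 high at Bhlhe40 (48.4 CPM, 0.875). Among Post libraries, Post 1 was high at Prkag3 (3.23 CPM, 0.908), Post 2 at Cidea (9.71 CPM, 0.929) and Ech1 (197.2 CPM, 0.873), Post 3 at Arntl (27.8 CPM, 0.885), and Post 4 was low at Slc30a2 (1.07 CPM, 0.864) and Tnnc2 (5414.0 CPM, 0.899). Of these, the calls of Phkg1, Rbfox2, the internal Pnpla2 start, Arntl and Slc30a2 held under every setting.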

How the results depend on the processing

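The counts of calls depended on the processing, and some list medians changed sign. With each library left out in turn, 605 to 1371 promoters were higher and 548 to 1459 lower. Fits without Post 2, Post 3, Fed 1 or Fed 2 gave 764, 714, 629 and 605 higher, and fits without Post 1, Post 3, Fed 1 or Fed 2 gave 612, 638, 548 and 660 lower. Library size without TMM gave 60 higher and 214 lower for Post against Fed, all 60 and 213 of them called with TMM as well, 21 calls for Post against Pre and 6 for Fed against Pre. The covariate of fast glycolytic genes gave 569 and 480, and the loss of Fed 1 and Fed 2 together 94 and 68. A fit of the 8 libraries alone lowered the lower calls to 827. With the replicate number as a block in that fit, 400 were higher and 404 lower. The shared numbers do not pair the mice, since same-numbered libraries deviated with correlations of 0.297, −0.0391, −0.114 and −0.0184. DESeq2 gave 1394 and 1373. The distance between Post and Fed libraries beyond that within groups was 0.315 over 500 promoters per pair (exact p = 0.114, one-sided) and 0.115 over all promoters (exact p = 0.0286, the smallest possible). List medians moved without TMM to −0.24 for insulin signalling, −0.16 for endoplasmic reticulum folding, −0.06 for mechanical load, 0.00 for translation factors, 0.21 for ribosomal proteins, 0.27 for the proteasome and −0.30 for endothelial markers. All 38 libraries gave −0.03 for insulin signalling, the loss of Fed 1 and Fed 2 gave 0.13 for heat shock, and the covariate gave −0.04 for mitochondrial regulators, 1.79 for neutrophil markers (main 0.86; 0.35 to 1.26 with a library left out) and −0.24 for genes listed for torpor (main 0.11; −0.19 to 0.22). The cause was not tested. Of the 148 named calls, none reversed in any of the 19 settings. All had passed the threshold in the main fit of the same data, which makes a reversal unlikely beforehand. Of the 148, 78 held with each library left out, 90 under the block, 46 without TMM and 32 without Fed 1 and Fed 2. Promoters of a few tags per library, such as Birc5, are limited by depth.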
